A study of Mus musculus with 8 samples.

Results

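Expression of 10 listed basement membrane genes was followed in mouse embryonic stem (ES) cells treated to degrade OCT4, a transcription factor of pluripotency, or deprived of LIF, a cytokine that supports self-renewal. The genes were taken by symbol: the laminin chains Lama1, Lama5, Lamb1, Lamb2 and Lamc1, the type IV collagen chains Col4a1 and Col4a2, the nidogens Nid1 and Nid2, and Sparc. They are 10 of the 24921 gene symbols in the count tables. Of the 10, 8 have a single transcript accession in the tables and were well counted, Sparc had 60 reads over all libraries, and Col4a1 had 0.

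RNA-seq was performed on 8 libraries, 2 in each of 4 groups, all from V6.5, an ES cell line of C57BL/6-129 origin kept in 2i medium (with MEK and GSK3 inhibitors) on gelatin-coated plastic. The OCT4-FKBP line makes OCT4 joined to an FKBP tag, by which a dTAG compound sends the protein for degradation. It received DMSO for 24 h or the compound labelled dTag9 for 24 h. The parental line (WT, no tag) was kept with LIF or had been without LIF for 5 days. The labels give no clone number for the tagged line, and untagged cells with dTAG are not among these groups. Library totals ranged from 7221451 to 11447468 counted reads. Whether replicate libraries were separate cultures is not stated, and the p-values cover only the spread from library to library. RNA came from whole cultures, and fewer cells of a type and less RNA per cell cannot be told apart.

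Basement membranes are thin sheets of extracellular matrix on which epithelia rest. Their laminins are trimers of an α, a β and a γ chain, which join into a network at the cell surface and bind integrins and dystroglycan, while type IV collagen forms a second, covalently crosslinked network. Nidogens bind both networks, and Sparc is a secreted collagen-binding protein. In the implanting mouse embryo the epiblast, from whose precursors ES cells derive, lies against such a sheet made with the primitive endoderm, and the parietal endoderm lays down a thick one, Reichert's membrane.

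Promoter sequence is given for 3 members that stand for the patterns described below, Lama5 and Lamb1 (higher after both treatments) and Nid1 (lower after both). The windows are those of RefSeq, assembly GRCm38.p6, from 250 bases before to 50 after the annotated start, and the printed stretches leave out annotated exons and are read 5′ to 3′ on the gene's strand. Lama5 is taken from chr2:180225905-180226109 (minus strand), Lamb1 from chr12:31265043-31265145 (plus strand) and Nid1 from chr13:13437352-13437550 (plus strand). Capitals mark the GC box, GGGCGG or its reverse complement CCGCCC, the letters bound by Sp-family factors.
Lama5: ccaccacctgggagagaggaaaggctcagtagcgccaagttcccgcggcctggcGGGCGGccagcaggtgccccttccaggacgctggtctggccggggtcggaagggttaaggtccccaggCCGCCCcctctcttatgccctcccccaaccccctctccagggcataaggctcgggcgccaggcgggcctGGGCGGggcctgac
Lamb1: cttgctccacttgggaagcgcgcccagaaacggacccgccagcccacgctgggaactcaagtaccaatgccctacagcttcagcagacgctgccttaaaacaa
Nid1: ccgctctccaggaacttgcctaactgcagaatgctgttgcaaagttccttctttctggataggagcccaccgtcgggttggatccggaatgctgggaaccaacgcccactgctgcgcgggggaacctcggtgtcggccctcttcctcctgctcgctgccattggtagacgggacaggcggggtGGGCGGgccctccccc
The printed stretch of Lama5 held 3 matches, that of Nid1 held 1 and that of Lamb1 held 0. Over whole windows of 300 bases there were 4 matches in Lama5, 3 in Col4a2, 2 in Lamb1, 1 in Nid1, 1 in Col4a1 and 0 in Lamb2 and Sparc, and 35.7% of all 32851 promoter windows held at least 1. The TATA motif TATAAA (13.6% of all windows) and the octamer ATGCAAAT (1.7% of all windows), searched on both strands, had no match in the 7 members with a window. Lama1, Lamc1 and Nid2 had no entry. The windows of Col4a1 and Col4a2, on chromosome 8 and on opposite strands, share 78 bases. These matches describe letters only and were not related to the read counts.

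Laminin chain genes moved in both directions after each treatment (plot of CPM in each library). Among the α chains, Lama1 fell and Lama5 rose after either treatment, and among the β chains Lamb1 rose after either. The γ chain gene Lamc1 and the nidogens Nid1 and Nid2 fell after both treatments. Lamb2 rose slightly with dTAG and fell without LIF, and Col4a2 rose after both, by far more without LIF. Values below are CPM, read counts scaled to the TMM-adjusted library size, unless another scale is named, and tests are edgeR's quasi-likelihood test with Benjamini-Hochberg adjustment over 10311 genes, called at an adjusted p of 0.05.

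**Figure D1:**
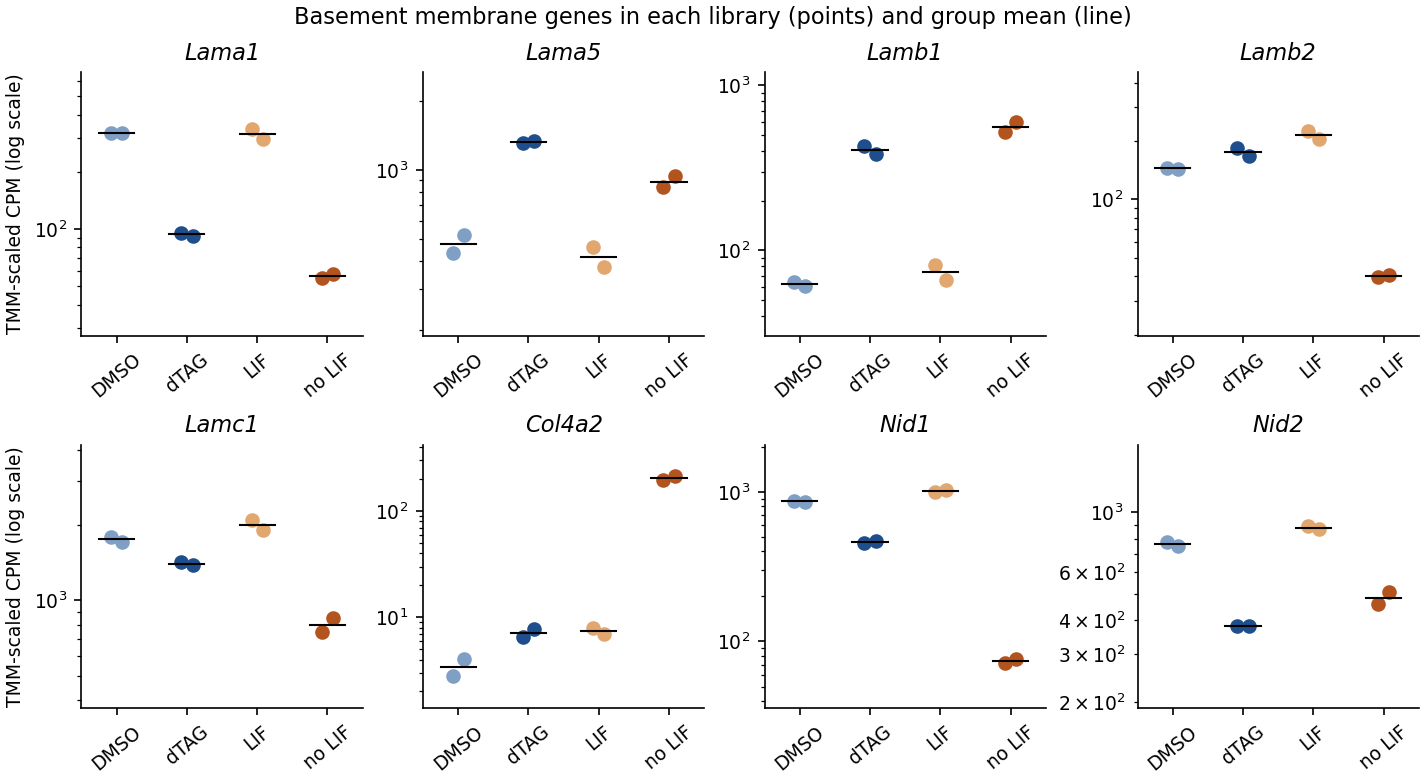
CPM (log scale) of the 8 well-counted members in each library (points) with the group mean (line), for the OCT4-FKBP line with DMSO or dTAG and the WT line with or without LIF. Lamb1 and Lama5 are higher and Lama1, Lamc1, Nid1 and Nid2 lower in both treated groups, Lamb2 is lowest without LIF, and Col4a2 is 198 to 212 CPM without LIF and below 8 CPM elsewhere.

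With dTAG, 4 of the 9 members that could be tested were called higher, where 20.1% of all tested genes were, and 4 were called lower, where 20.3% were. The median log2 fold change of the 9 was 0.28, beside 0 over all 10311 genes, and the median size of change without regard to sign was 0.99, beside 0.31. Without LIF, 3 of the 9 were called higher (34% of all genes) and 6 lower (34.4% of all genes). Their median log2 fold change was -1.33, beside -0.02 over all genes, and the median size was 2.49, beside 0.61. The members did not move in a single direction after either treatment.

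Lama1 encodes the laminin α1 chain, a main α chain of the earliest embryonic basement membranes. Its levels were 322 and 321 CPM with DMSO, 95.7 and 91.6 CPM with dTAG, 335 and 296 CPM with LIF and 54.9 and 58.2 CPM without LIF. Both control groups overlapped, and both treated groups lay below them without overlap. Lama1 fell 3.43-fold with dTAG (log2 fold change -1.78, SE 0.066, edgeR adjusted p = 1.5e-17) and 5.6-fold without LIF (log2 fold change -2.49, SE 0.07, edgeR adjusted p = 5.6e-21). Its change with dTAG ranked as the 417th lowest of 10311.

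Lama5 encodes the α5 chain, the α chain most widely found in adult epithelial basement membranes. It was read at 431 and 521 CPM with DMSO, at 1308 and 1340 CPM with dTAG, at 458 and 377 CPM with LIF and at 839 and 939 CPM without LIF. The order was thus dTAG, no LIF and then both control groups, which overlapped. Lama5 rose 2.77-fold with dTAG (log2 fold change 1.47, SE 0.078, edgeR adjusted p = 1.9e-14) and 2.13-fold without LIF (log2 fold change 1.09, SE 0.078, edgeR adjusted p = 2.3e-12).

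Lamb1 encodes the β1 chain, the partner of α1 and α5 in the laminins of early embryos. It stood at 63.6 and 60.5 CPM with DMSO and at 81.3 and 65.5 CPM with LIF. The treated libraries held 430.2 and 384 CPM with dTAG, and 519 and 602 CPM without LIF. No treated library came near a control library. Lamb1 rose 6.58-fold with dTAG (log2 fold change 2.72, SE 0.086, edgeR adjusted p = 5.1e-19), the 135th highest change of 10311, and 7.56-fold without LIF (log2 fold change 2.92, SE 0.083, edgeR adjusted p = 7.3e-21), the 660th highest.

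Lamb2 encodes the β2 chain, best known from the basement membranes of the kidney glomerulus and the neuromuscular junction. Its levels were 145 and 144 CPM with DMSO, 184 and 167 CPM with dTAG, 227 and 205 CPM with LIF, and 39.6 and 40.8 CPM without LIF. The 4 groups did not overlap, with LIF highest and no LIF lowest. Lamb2 fell 5.39-fold without LIF (log2 fold change -2.43, SE 0.075, edgeR adjusted p = 4.6e-20). With dTAG it rose 1.21-fold (log2 fold change 0.28, SE 0.066, edgeR adjusted p = 0.0013), and this call was lost without dTAG replicate 1 (log2 fold change 0.20, edgeR adjusted p = 0.073).

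Lamc1 encodes the γ1 chain, which nearly all laminin trimers of the early embryo share. Its levels were 1793 and 1717 CPM with DMSO and 2097 and 1910 CPM with LIF. It was read at 1421 and 1381 CPM with dTAG and at 744 and 848 CPM without LIF, so that no groups overlapped. Lamc1 fell 1.25-fold with dTAG (log2 fold change -0.33, SE 0.059, edgeR adjusted p = 6.3e-05) and 2.52-fold without LIF (log2 fold change -1.33, SE 0.06, edgeR adjusted p = 1.3e-16).

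Because a laminin trimer holds a chain of each kind, the chains were also compared per kilobase of transcript. Transcript lengths came from GENCODE M21 and ran from 5.629 kb for Lamb2 to 11.388 kb for Lama5. Since 2 libraries against 2 cannot give a two-sided exact permutation p below 0.333, these ratios are described without a test. The ratio of Lama5 to Lama1 per kilobase was 1.12 to 1.36 with DMSO and 1.06 to 1.14 with LIF, so both chains were read about equally in the control libraries. It was 11.4 to 12.2 with dTAG and 12.8 to 13.5 without LIF, and Lama5 then made up 92% to 92.4% and 92.7% to 93.1% of the α sum.

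The ratio of Lamb1 to Lamb2 per kilobase crossed 1 in both experiments. It was 0.408 to 0.428 with DMSO and 2.24 to 2.28 with dTAG, and 0.311 to 0.349 with LIF and 12.7 to 14.4 without LIF. The share of Lamb1 in the β sum was 29% to 30% with DMSO and 69.2% to 69.5% with dTAG. That share was 23.7% to 25.9% with LIF and 92.7% to 93.5% without LIF. The α ratio thus lay between 11.4 and 13.5 in all treated libraries, while the β ratio was higher without LIF, where Lamb2 also fell.

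The 3 kinds of chain were also closer to each other in the treated libraries. Lamc1 stood at 225 to 235 CPM per kilobase with DMSO, beside 71.7 to 79.5 for the α sum and 36.1 to 36.7 for the β sum. With dTAG the values were 181 to 186 for Lamc1, 125 to 127 for the α sum and 96 to 107 for the β sum. The ratio of γ to β was 6.25 to 6.41 with DMSO and 1.74 to 1.89 with dTAG. In the WT line it was 5.06 to 5.25 with LIF and 1 to 1.01 without LIF, where the α sum was 79.5 to 88.6, the β sum 96.7 to 111 and Lamc1 97.6 to 111 CPM per kilobase. These are transcript levels, and protein was not measured.

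**Figure D2:**
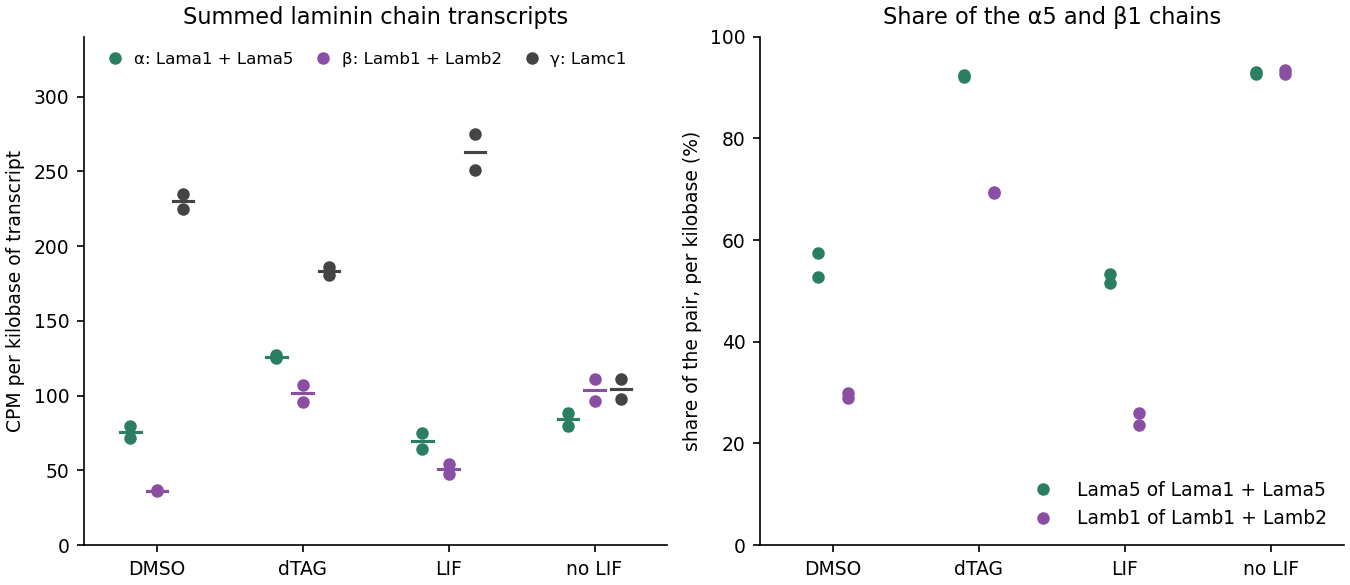
Left, CPM per kilobase of transcript summed over the α chains Lama1 and Lama5, the β chains Lamb1 and Lamb2, and for the γ chain Lamc1, in each library (points) with the group mean (line). Right, the share of Lama5 in the α sum and of Lamb1 in the β sum, in percent; both shares are higher in the treated groups, and Lamb1 stands at 92.7% to 93.5% without LIF and 69.2% to 69.5% with dTAG.

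The other laminin chain genes were mostly at few reads. Lama4, the α4 chain of vascular basement membranes, fell with dTAG from 37 reads to 12 over each group's libraries (log2 fold change -1.58, edgeR adjusted p = 0.0053). Its change without LIF was not called (log2 fold change 0.19, SE 0.275, edgeR adjusted p = 0.56).

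Type IV collagen was read through Col4a2, whose product, the α2 chain, joins α1 chains in the commonest collagen IV molecule. Col4a2 was read at 2.81 and 4.05 CPM with DMSO, at 6.46 and 7.76 CPM with dTAG and at 7.95 and 6.94 CPM with LIF. Without LIF it stood at 198 and 212 CPM, far above all other libraries, and the dTAG and LIF groups overlapped. It rose 27.2-fold without LIF (log2 fold change 4.77, SE 0.108, edgeR adjusted p = 5.9e-23), the 292nd highest change of 10311. With dTAG it rose 1.99-fold (log2 fold change 0.99, SE 0.211, edgeR adjusted p = 0.00039), on 66 reads in the DMSO libraries and 129 in the dTAG libraries.

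Col4a1, which lies head to head with Col4a2 and encodes the α1 chain, had 0 reads in all 8 libraries. It has 2 accessions in the tables, and reads that fall in sequence shared by accessions of a gene are assigned to neither in this kind of counting. Its 0 is therefore not a measurement of its expression, and no fold is given. Of the other collagen IV chains, Col4a6 alone passed the filter, and only through the no-LIF libraries. It had 0 reads with LIF and 42 without LIF, at least 14.6-fold higher against a floor of 3 reads over the group (edgeR adjusted p = 4.8e-07). With dTAG it had 4 reads against 1 (ratio 4.07, exact 95% interval 0.403 to 201, counting error only), and its change was not called.

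Nid1 and Nid2 encode nidogens, which bind the laminin γ1 chain to collagen IV. Nid1 was read at 869 and 859 CPM with DMSO, 456 and 466 CPM with dTAG, 999 and 1035 CPM with LIF and 72.1 and 76.8 CPM without LIF. The 4 groups were apart, and the 2 libraries of each were close. Nid1 fell 1.87-fold with dTAG (log2 fold change -0.91, SE 0.051, edgeR adjusted p = 8.2e-14) and 13.7-fold without LIF (log2 fold change -3.78, SE 0.061, edgeR adjusted p = 7.3e-26), the 292nd lowest change of 10311.

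Nid2 stood at 780 and 749 CPM with DMSO and 888 and 869 CPM with LIF. It was read at 381 and 381 CPM with dTAG and at 460.3 and 507 CPM without LIF. Nid2 fell 2-fold with dTAG (log2 fold change -1.004, SE 0.055, edgeR adjusted p = 3.6e-14) and 1.82-fold without LIF (log2 fold change -0.86, SE 0.054, edgeR adjusted p = 1.5e-13). The ratio of Nid2 to Nid1 per kilobase was 1.02 to 1.12 over the DMSO, dTAG and LIF libraries and 7.98 to 8.26 without LIF. Nid2 shares 437 exon bases, 8.45% of its exon length, with Rtraf on the opposite strand. Whether strand was used in counting is not stated, so reads of these bases are uncertain.

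Sparc encodes a collagen-binding glycoprotein abundant in parietal endoderm. It has 2 accessions, and its 60 reads came from the sequence of only 1 of them. They were 7 and 8 reads with DMSO, 12 and 7 with dTAG, 18 and 5 with LIF, and 1 and 2 without LIF. With dTAG no change was called (log2 fold change 0.36, SE 0.561, edgeR adjusted p = 0.65). Without LIF the 3 reads against 23 gave a ratio of 7.36 lower (exact 95% interval 2.23 to 38.3, counting error only), called by edgeR (adjusted p = 0.0025). That call was lost with DESeq2 (adjusted p = 0.052), without LIF replicate 1 (adjusted p = 0.16) and without no-LIF replicate 1 (adjusted p = 0.091).

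The responses to dTAG and to LIF withdrawal use separate control libraries and differ in line, agent and time, and their difference was tested in the same fit. Of the 9 members, 6 had a difference called higher with dTAG (28.6% of all genes) and 1 lower (26.4% of all genes). The fall of Nid1 was smaller with dTAG by 2.87 on the log2 scale (edgeR adjusted p = 1.6e-20), that of Lamc1 by 1.01 (adjusted p = 1e-10) and that of Lama1 by 0.71 (adjusted p = 7.2e-07). Lamb2, which moved in opposite directions, differed by 2.71 (edgeR adjusted p = 7.3e-18). The rise of Col4a2 was smaller with dTAG (difference -3.77, SE 0.279, edgeR adjusted p = 1e-11).

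For Lamb1 the difference was -0.20 (SE 0.12, edgeR adjusted p = 0.16) and for Nid2 -0.14 (SE 0.077, edgeR adjusted p = 0.12), neither called. Lamb1 was called when dTAG replicate 1 (adjusted p = 0.048), LIF replicate 1 (adjusted p = 0.0057) or no-LIF replicate 1 (adjusted p = 0.046) was left out, and Nid2 without no-LIF replicate 1 (adjusted p = 0.02). The difference of Lama5, 0.38 (SE 0.109, edgeR adjusted p = 0.0042), was called but lost with DESeq2 (adjusted p = 0.18) and without no-LIF replicate 1 (adjusted p = 0.052). That of Sparc, 3.12 (SE 0.972, edgeR adjusted p = 0.0084), rests on 3 reads without LIF and was lost with DESeq2 (adjusted p = 0.1) and without dTAG, LIF or no-LIF replicate 1 (adjusted p = 0.061, 0.16 and 0.11).

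**Figure D3:**
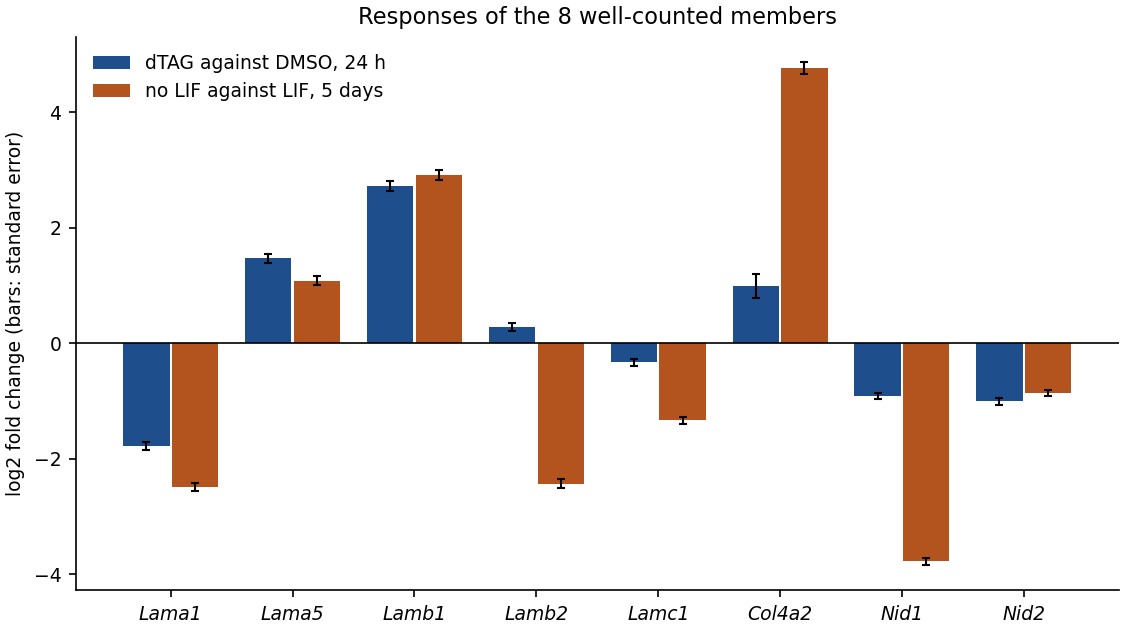
Log2 fold change of the 8 well-counted members with dTAG against DMSO (24 h) and without LIF against LIF (5 days), with edgeR standard errors as bars. Lama1, Lamc1, Nid1 and Nid2 are below 0 in both and Lama5, Lamb1 and Col4a2 above 0 in both, while Lamb2 is at 0.28 with dTAG and -2.43 without LIF.

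The control groups themselves were also compared, as the level from which each response starts. In the DMSO libraries 0 of the 9 members were called higher than in WT with LIF (18.5% of all genes were) and 6 lower (22.1% of all genes); at an unadjusted p under 0.05 there were 7 members in either direction. Col4a2 was 2.1-fold lower (log2 fold change -1.07, SE 0.205, edgeR adjusted p = 0.00016) and Lamb2 was 1.5-fold lower (log2 fold change -0.58, SE 0.065, edgeR adjusted p = 8.5e-08). Nid1, Nid2 and Lamc1 were lower by 1.18-fold, 1.15-fold and 1.14-fold (edgeR adjusted p = 0.00053, 0.0036 and 0.011). This comparison shares its DMSO libraries with the dTAG response and its LIF libraries with the LIF response, and in it the tag, the line, the solvent and a batch of cultures cannot be told apart.

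Smaller differences between the control groups turned on single libraries or settings. Lamb1 was 1.2-fold lower with DMSO (edgeR adjusted p = 0.033), a call lost in 8 of 16 settings, among them without either DMSO library (adjusted p = 0.065 and 0.25), without LIF replicate 1 (adjusted p = 0.56) and with DESeq2 (adjusted p = 0.27). Lama5 was not called (1.14-fold higher, edgeR adjusted p = 0.053) but was called in 9 of 16 settings, with adjusted p from 2e-04 to 0.54 over all of them. The calls of Lamc1 and Nid2 were lost without DMSO replicate 2 (adjusted p = 0.21 and 0.15), and that of Lamc1 also without LIF replicate 1 (adjusted p = 0.093). Lama1 differed by 0.03 on the log2 scale (SE 0.06, edgeR adjusted p = 0.76).

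Genes that work with the members were followed in 4 lists (plot of list calls). Their counts stand beside the shares over all tested genes, 20.1% called higher and 20.3% lower with dTAG and 34% and 34.4% without LIF, and beside all-gene medians of 0 and -0.02. A gene with several transcripts may have gone untested because the reads that these share were dropped. Of 18 other basement membrane components, 9 could be tested. With dTAG 5 rose and 1 fell (median log2 fold change 0.56), and without LIF 7 rose and 2 fell (median 1.68). Of these, Fras1, Efemp1 and Col18a1 had at most 0.971 CPM in any library of the other groups. They passed the filter on low counts only through the no-LIF libraries. Their rises there were thus partly set by the filter and are no support for a rise of the list. Hspg2, the heparan sulfate proteoglycan perlecan, rose 1.47-fold with dTAG (edgeR adjusted p = 1.7e-05) and 1.67-fold without LIF (edgeR adjusted p = 5.9e-08). Frem2, a large protein of the Fraser complex that anchors epithelia to the sheet, rose 32.5-fold with dTAG, from 13.4 ± 0.679 to 433 ± 11.5 CPM (SD, n = 2 each; edgeR adjusted p = 7.1e-23). Hmcn1, the matrix protein hemicentin, rose 5.51-fold, from 2.85 ± 0.541 to 15.3 ± 1.08 CPM (SD, n = 2 each; edgeR adjusted p = 6.1e-10). Without LIF Efemp1, a fibulin, rose 62.3-fold to 51 ± 0.785 CPM (SD, n = 2; edgeR adjusted p = 2e-19), and Fn1, fibronectin, fell 7.16-fold to 21.9 ± 0.364 CPM (SD, n = 2; edgeR adjusted p = 1.4e-20), read only in sequence that tells its 7 accessions apart.

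Of 17 receptor genes, 11 could be tested, and 4 rose and 3 fell after each treatment (median log2 fold change 0.05 with dTAG and 0.10 without LIF). Without LIF these counts are near the shares over all genes. Among the integrin genes, Itga3, Itga6, Itga7 and Itgb4 had 30, 37, 6 and 18 reads in all and were not tested. Dag1, the gene of dystroglycan, had 152 reads in all. Each of these has several transcripts, and reads that they share were dropped, so these low counts do not measure expression. Itga1, whose integrin binds collagen IV, rose 12.5-fold with dTAG, from 7.16 ± 0.792 to 88.2 ± 2 CPM (SD, n = 2 each; edgeR adjusted p = 9.1e-18). Ddr2, a collagen-activated receptor tyrosine kinase, fell 3.83-fold, from 43.4 ± 1.83 to 11.3 ± 0.828 CPM (SD, n = 2 each; edgeR adjusted p = 9.1e-13). Both moved the same way without LIF, Itga1 6.13-fold higher (edgeR adjusted p = 3.2e-10) and Ddr2 10.5-fold lower (edgeR adjusted p = 8e-13). Their control levels differed between the lines, with means of 1.63 CPM for Itga1 and 13.2 CPM for Ddr2 in WT with LIF. Without LIF Itgb1, the β1 subunit shared by most laminin-binding integrins, rose 1.92-fold to 1580 ± 72.1 CPM (SD, n = 2; edgeR adjusted p = 7.1e-15). The membrane proteoglycan gene Sdc4 fell 3.14-fold to 157 ± 3.12 CPM (SD, n = 2; edgeR adjusted p = 3.2e-19).

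Of 23 genes of collagen synthesis and crosslinking, 16 could be tested. With dTAG 3 rose and 4 fell (median log2 fold change -0.29, or -0.18 with a gene read at 0 in a group set to its bound), and without LIF 8 rose and 6 fell (median 0.41). Colgalt1, which adds galactose to collagen hydroxylysines, fell 1.47-fold with dTAG, from 435 ± 9.3 to 296 ± 0.868 CPM (SD, n = 2 each; edgeR adjusted p = 2.9e-09), and Tgm2, a transglutaminase, fell 2.07-fold (edgeR adjusted p = 2e-06). Without LIF Pxdn, peroxidasin, which forms the sulfilimine crosslink of collagen IV, rose 35.2-fold, from 5.52 ± 0.185 to 194 ± 11.6 CPM (SD, n = 2 each; edgeR adjusted p = 3.7e-23). Loxl2, a lysyl oxidase that also crosslinks collagen IV, rose 120-fold to 74.2 ± 3.11 CPM (SD, n = 2; edgeR adjusted p = 4.6e-20), from 12 reads with LIF. Loxl2, P3h2 and P4ha3 passed the filter on low counts only through the no-LIF libraries, so their rises there were partly set by it.

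Of 18 matrix proteases and inhibitors, 16 could be tested. With dTAG 2 rose and 4 fell (median log2 fold change -0.13), near the shares over all genes, and without LIF 11 rose and 4 fell (median 3.14). Plau, among those that rose without LIF, passed the filter on low counts only through the no-LIF libraries. Mmp15, a membrane-type metalloproteinase, rose 4.64-fold with dTAG, from 45.2 ± 3.18 to 208 ± 11.2 CPM (SD, n = 2 each; edgeR adjusted p = 1.5e-17). Without LIF Serpine2, a serine protease inhibitor, rose 13.5-fold to 98.1 ± 0.497 CPM (SD, n = 2; edgeR adjusted p = 2.9e-20). Htra1, a secreted serine protease, fell 9.36-fold to 8.48 ± 0.159 CPM (SD, n = 2; edgeR adjusted p = 6.5e-20).

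**Figure D4:**
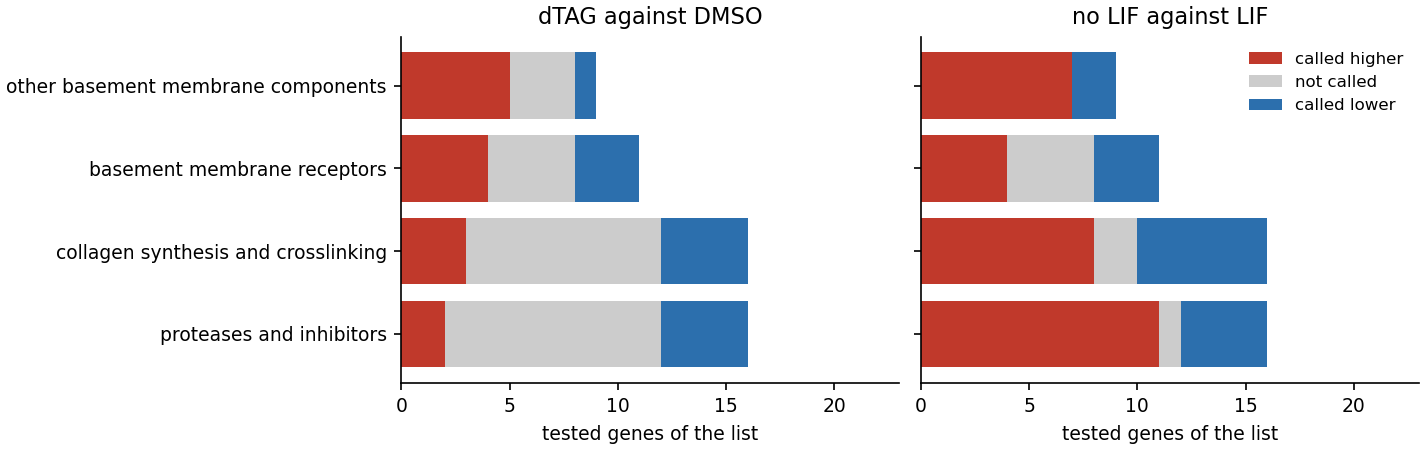
Number of tested genes called higher, not called and called lower by edgeR in 4 lists of genes that work with the members, with dTAG against DMSO and without LIF against LIF. Other basement membrane components had 5 and 7 genes called higher of 9, and proteases and inhibitors had 2 with dTAG and 11 without LIF of 16. Some genes called higher without LIF passed the filter on low counts only through the no-LIF libraries.

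Markers of several cell types were also followed. The counts called in this and the next marker paragraphs stand beside the shares over all tested genes. These were 20.1% called higher and 20.3% lower with dTAG, and 34% and 34.4% without LIF. With few genes tested in most lists, small counts do not stand out from these shares. Cubn, Sox7, Apob, Spink1, Hand1, Eomes, Col3a1 and Cdh5 passed the filter on low counts only through the no-LIF libraries. Their rises without LIF were thus partly set by that filter. The summed level of 8 pluripotent stem cell markers was 6620 to 6670 CPM with DMSO and 2120 to 2150 CPM with dTAG, and 6730 to 6840 CPM with LIF and 2080 to 2110 CPM without LIF. Of the 8, 7 fell with dTAG, and those with the smallest p were Tdgf1 (12.1-fold, edgeR adjusted p = 1.3e-22) and Fgf4 (4.91-fold, edgeR adjusted p = 1.9e-20). Without LIF 2 rose and 6 fell, and those with the smallest p were Tfcp2l1 (33.3-fold lower, edgeR adjusted p = 5e-28) and Klf4 (29.8-fold lower, edgeR adjusted p = 2.9e-25). The 2 that rose were Utf1 (4.24-fold, edgeR adjusted p = 5.3e-19) and Tdgf1 (1.6-fold, edgeR adjusted p = 2.2e-10), which had fallen with dTAG. Tfcp2l1 weighs heavily in both sums, going from 3570 to 1030 CPM with dTAG and from 3180 to 96 CPM without LIF. All 8 had reads in every group. Pou5f1, the gene of OCT4, had 77.5 and 77.8 CPM in DMSO and 84.6 and 90.2 CPM in dTAG libraries, and since dTAG acts on the protein, its transcript does not check the degradation. In the WT line it had 425 and 336 CPM with LIF and 205 and 170 CPM without LIF. Reads shared by the 2 transcripts of Pou5f1 were dropped, so these values are not its full level.

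Of 10 primitive endoderm markers, 7 had reads, summing to 0.983 to 1.76 CPM with DMSO and 18 to 21.7 CPM with dTAG, and to 2.47 to 2.82 CPM with LIF and 64.2 to 69.4 CPM without LIF. Each summed rise is mostly that of a single gene, with Gata6 at 20.6 and 16.9 CPM with dTAG and Cubn at 57.5 and 62.7 CPM without LIF. Of 3 tested, 1 rose with dTAG and 3 rose without LIF. Cubn and Sox7 had at most 0.706 CPM in any library of the other groups and were tested only through the no-LIF libraries. The count without LIF was thus partly set by the filter and is no support for a rise of the list. Gata6, a transcription factor of that lineage, rose from 11 to 340 reads with dTAG (30.9-fold, edgeR adjusted p = 3.5e-13), and Cubn, an endocytic receptor, rose from 13 to 1133 reads without LIF (89.6-fold, edgeR adjusted p = 2.7e-20) and was not called with dTAG (edgeR adjusted p = 0.66). Sox7 had 4 reads with DMSO and 0 with dTAG, not called (edgeR adjusted p = 0.062), and rose from 6 to 50 without LIF (8.32-fold, edgeR adjusted p = 1e-05). The defining genes Gata4 and Foxa2 were at 0 reads and Sox17 and Dab2 at 3 and 2 in all, but each has several accessions, so these counts do not measure expression.

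The 7 parietal endoderm markers summed to 7.86 to 10.1 CPM with DMSO and 18.1 to 18.9 CPM with dTAG, and to 3.62 to 4.23 CPM with LIF and 16.5 to 18.5 CPM without LIF. Of 4 tested, 1 rose and 2 fell with dTAG and 2 rose without LIF. The summed rise with dTAG is mostly that of Snai1, from a mean of 3.71 to 13.7 CPM. Snai1 rose 3.76-fold with dTAG (edgeR adjusted p = 4e-08) and 6.07-fold without LIF (edgeR adjusted p = 1.1e-07), Thbd fell with dTAG from 40 reads to 5 (7.46-fold, edgeR adjusted p = 0.00024), and Plat rose without LIF from 9 reads to 158 (17.8-fold, edgeR adjusted p = 1.6e-10). The 7 visceral endoderm markers with an accession in the tables summed to at most 0.887 CPM in the DMSO, dTAG and LIF libraries and to 15.3 to 20.9 CPM without LIF. The 2 tested ones had at most 0.555 CPM in any library of the other groups and passed the filter only through the no-LIF libraries. That both rose there was thus partly set by the filter and is no support for a rise of the list. Without LIF Apob rose from 4 reads to 190 (47.3-fold, edgeR adjusted p = 8.5e-12) and Spink1 from 0 to 97 (at least 33.7-fold, edgeR adjusted p = 2.1e-09). With dTAG neither was called (edgeR adjusted p = 0.9 and 0.39).

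The 8 trophoblast markers summed to 36.1 to 40 CPM with DMSO, 186 to 207 CPM with dTAG, 6.44 to 7.41 CPM with LIF and 92.7 to 103 CPM without LIF. Of 5 tested, 2 rose and 3 were not called with dTAG, and 4 rose and 1 fell without LIF. The sums with DMSO and dTAG are mostly Cdx2, at means of 32.9 and 180 CPM, beside 0.794 CPM in WT with LIF. Cdx2 rose 5.43-fold (edgeR adjusted p = 5.2e-17) and Krt7 21.7-fold (edgeR adjusted p = 7.3e-12) with dTAG, and Krt7 44.1-fold (edgeR adjusted p = 5.5e-20) and Hand1 59.1-fold (edgeR adjusted p = 1.4e-15) without LIF. Tfap2c fell 4.98-fold without LIF (edgeR adjusted p = 1e-05); it was not called with dTAG, nor were Eomes and Hand1 (edgeR adjusted p = 0.97, 0.74 and 0.099). The 8 fibroblast markers summed to 27.5 to 31.2, 20.6 to 22, 17.8 to 20.7 and 47.2 to 48.4 CPM in the DMSO, dTAG, LIF and no-LIF libraries. Of 5 tested, 1 rose and 2 fell with dTAG, and 4 rose without LIF. Col1a2 rose from 11 reads to 34 with dTAG (3.1-fold, edgeR adjusted p = 0.0054) and from 13 to 130 without LIF (10.2-fold, edgeR adjusted p = 1.7e-09), while Fbn1 fell 1.88-fold with dTAG (edgeR adjusted p = 0.0039) and rose 2.69-fold without LIF (edgeR adjusted p = 7.8e-09). The 6 endothelial markers summed to at most 10.4 CPM in any library; Kdr fell 3-fold with dTAG (edgeR adjusted p = 2e-04) and 6.7-fold without LIF (edgeR adjusted p = 5.4e-08), and Cdh5 had 0 reads with LIF and 154 without it (at least 53.4-fold, edgeR adjusted p = 8.4e-12) and 2 and 3 reads with DMSO and dTAG. In these 3 lists Gata3, Prl3d1, Dcn, Postn, Pecam1, Tek and Emcn had 0 reads in all, and Elf5 had 1. Each has several transcripts, and reads that these share were dropped in the counting. Their counts therefore do not measure expression, and the sums rest on the other markers. The part of the listed cell types in the members' changes was not tested.

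Genes with the pattern closest to 2 of the members over the 8 libraries were found by Pearson's r of log2 CPM among 7041 genes with a mean of at least 5 CPM. The libraries fall into 4 groups, so r mostly follows the group means and is given as a description. For Lama1 the closest were Fgf10 (r = 0.998), Dcp2 (r = 0.998) and Klf2 (r = 0.996). Klf2, a transcription factor of naive ES cells, had mean levels of 311, 66.8, 307 and 35.4 CPM with DMSO, dTAG, LIF and no LIF. For Lamb1 the closest were Cul7 (r = 0.997), Limd1 (r = 0.995) and Soat1 (r = 0.994). Soat1, which esterifies cholesterol, had mean levels of 24 CPM with DMSO, 245 CPM with dTAG and 23.8 CPM with LIF, and was highest without LIF.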

How the data were processed

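Each library came as a table of raw counts of reads on RefSeq transcripts, as the authors deposited it; per the submitters' processing notes HISAT2, HTSeq and mm9 were used (no versions, and strand setting not stated). Reads in sequence shared by accessions are counted for none, and ambiguous reads were 42.5% of counted plus ambiguous reads. HTSeq's summary lines (reads without a feature were 10.4% to 14.9% of unique reads) stayed out of totals and tests. Of 41565 accessions, 41325 were named by the RefSeq table of GRCm38 and 126 by GENCODE, and 114 kept their accession. Counts were summed per symbol and fitted over all 8 libraries and 4 groups with edgeR 4.0.16 in R 4.3.3 (TMM, filterByExpr, glmQLFit, glmQLFTest, 4 residual degrees of freedom). This left 10311 genes, 8026 with 1 accession. The coefficient of variation was 4.43%. Standard errors were taken as log2 fold change over the root of F. Replicates differed by more than sampling noise in each group (chi-square per degree of freedom 1.77 to 4.5). The scripts were tested on simulated data. Alternatives were other scaling, filters, a replicate block, accession handling, DESeq2 1.42.0 and leaving out each library. The members and lists were chosen with earlier results of these data known. All 10 members are described, every tested other laminin or collagen IV chain and, from each other list the 2 genes with the smallest p in each of the first 2 comparisons, plus Hspg2, Tfap2c and Eomes, added after their values were seen. The 3 most alike genes were also to be given for Col4a1, which had 0 reads. Some genes that this rule takes are not reported here. Mia3 and Rhox5 were not analysed here. Transcript lengths are from GENCODE M21, whose build is GRCm38 and not mm9; no position was converted.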

Additional observations from a re-analysis of the deposited data

How the results depend on the processing

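Over the alternatives, 518 fold changes of members kept their direction and their side of the threshold, 21 lost a call, 13 gained one and 3 reversed; of the counts of members called, 113 stayed within 1.5 times and 13 moved. In the dTAG and LIF responses every member but Lamb2 and Sparc kept its call under all 16 settings. All 3 reversals were of values not called and came from leaving out a library: Sparc with dTAG (-0.075 without dTAG replicate 1, up to 0.677), Sparc between the control groups (-0.919 up to 0.462, the latter without LIF replicate 1) and Lama1 between the control groups (-0.024, without LIF replicate 2, up to 0.117). For the difference of responses, the members called lower were 1, and 1 to 3 when a library was left out. Between DMSO and LIF, the members called higher were 0, and 1 (Lama5) with DESeq2-type size factors, with no filter on low counts, with only genes of 1 accession and with each accession on its own, and 0 to 1 when a library was left out. The members called lower there were 6, and 3 to 6 when a library was left out. The cause of these shifts was not tested. Correlations of the deviations of same-numbered replicates were -0.01 to 0.05, so the numbers do not pair the libraries. With a replicate block 4 members were called higher and 4 lower with dTAG, 3 and 6 without LIF, 6 and 1 for the difference, and 0 and 6 between the control groups, and no member's call changed. Lengths per accession were not run as an alternative, because each member compared per kilobase has 1 accession. With 2 libraries a group, no single ratio can pass an exact permutation test, and Sparc and Col4a1, with 2 accessions each, had too few reads to be compared.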

Other observations

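Some genes that act on the basement membrane moved in opposite directions after the 2 treatments, and for these the difference itself was called. They were chosen after their values were seen. Sdc4 rose with dTAG (376 to 566 CPM) and fell without LIF (493 to 157 CPM), a difference of 2.25 on the log2 scale (SE 0.077, edgeR adjusted p = 1.5e-18). Sdc1, a related membrane proteoglycan gene, did the reverse, falling from 50.6 to 24.1 CPM with dTAG and rising from 68.7 to 108 CPM without LIF (difference -1.73, SE 0.123, edgeR adjusted p = 5.4e-12). Itgav, an integrin α subunit, rose from 218 to 314 CPM with dTAG and fell from 204 to 139 CPM without LIF (difference 1.08, SE 0.085, edgeR adjusted p = 3.6e-11). Fbln1, a fibulin found in basement membranes, rose from 32.3 to 57.4 CPM with dTAG and fell from 38.8 to 12.1 CPM without LIF (difference 2.51, SE 0.154, edgeR adjusted p = 2.2e-13).

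The Fraser complex, which anchors epithelia to the basement membrane, was read through Frem2 and Fras1. Frem2 rose 32.5-fold with dTAG and 3.22-fold without LIF, a difference of 3.34 on the log2 scale (SE 0.164, edgeR adjusted p = 2.6e-15). Fras1, whose product joins Frem2 in that complex, had 5 reads with LIF and 634 without LIF (127-fold, edgeR adjusted p = 1.9e-17), and with dTAG it had 5 reads against 1 (ratio 5.09, exact 95% interval 0.57 to 241, counting error only). The difference for Fras1 was not called (edgeR adjusted p = 0.08). Fras1 passed the filter on low counts only through the no-LIF libraries.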
